A study of Mus musculus with 22 samples.

Results

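Heat shock proteins and DnaJ proteins are molecular chaperones, and 70 protein-coding genes of these families were followed here through RNA of the mouse cochlea and of its outer hair cells. They were chosen by symbol alone: genes named Hspa, Hspb or Hsp90a with a number or letter, Dnaja, Dnajb or Dnajc with a number, and Hspd1, Hspe1 and Hsph1, with pseudogenes and 1 further gene of fitting symbol left out. These 70 were among 49671 gene identifiers and 21734 protein-coding genes in the tables. All libraries came from mice with 1 PrestinCreERT2 allele (PrestinCreERT2/+) and 1 RiboTag allele (RiboTagHA/+), and all mice, controls included, received tamoxifen. The Cre is made from the prestin locus, which is active in outer hair cells, the motile sensory cells that amplify sound. Once tamoxifen activates it, the ribosomal protein Rpl22 is made with a haemagglutinin tag. Tagged ribosomes were pulled down with an antibody (pulldown, IP), and their RNA was compared with that of whole cochleae (input). The ages were P8, P14, P28 and 6 weeks with 2 libraries of each fraction, and 10 weeks with 3, so 11 libraries per fraction, which the submitters describe as biological replicates. Tamoxifen was 3 mg per 40 g in mice under 21 days of age and 9 mg per 40 g in older ones, so dose and age cannot be told apart.

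Hsp70 proteins bind exposed hydrophobic stretches of client proteins and release them in a cycle driven by ATP. DnaJ proteins (DnaJA, DnaJB and DnaJC) bring clients to Hsp70 and speed its ATP hydrolysis, and Hsp110 proteins exchange its nucleotide. Hsp90 finishes the folding of kinases, receptors and other clients, small heat shock proteins hold unfolded proteins without ATP, and the Hsp60 and Hsp10 chaperonin (Hspd1 and Hspe1) folds proteins inside mitochondria. In the inner ear, heat shock and the inducible Hsp70 are known for protecting hair cells from ototoxic drugs and noise.

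Total reads per library were 30757875 to 71023032, of which 14978013 to 39907763 were counted to genes. The fractions differed in the reads left uncounted. Reads outside genes had a median of 30.5% in the pulldown and 12.2% in the whole cochlea. For reads aligned to several places the medians were 11.8% and 21.7%. The part of these differences in the values below was not tested. Values below are scaled CPM, CPM over gene reads divided by a TMM (trimmed mean of M values) factor that evens out differences in composition between libraries, and differences are on the log2(scaled CPM + 1) scale, which understates changes of low genes. Of the 70 genes, 65 reached a scaled CPM of 1 in at least 2 libraries and were tested among 20176 genes. Dnajb7 and Hspb3 stayed below 1 in every library, at up to 0.559 and 0.709, and Dnajb8, Dnajc5g and Hspb9 had 0 reads in all 22 libraries. Over all ages the pulldown matched its label. In it 12 of 13 outer hair cell markers were higher than in the whole cochlea, among them Ocm and Ikzf2 (log2 differences 2.22 and 2.46). At single ages fewer were called higher: 7 at P8, 4 at P14, 3 at P28, 2 at 6 weeks and 6 at 10 weeks. Their median log2 difference was lowest at 6 weeks (0.78) and highest at P8 (2.17). Prestin itself (Slc26a5) was at 23.8 ± 27.2 (SD, n = 11) in the pulldown and 7.35 ± 4.27 in the whole cochlea (log2 difference 0.75, limma adjusted p = 0.204). Of 82 tested markers in 12 lists for other cells, 57 were lower, 5 were higher and 20 were not called, and all lists had reads in the pulldown. The 5 were 2 of 5 endothelial markers and 1 each of 5 inner hair cell, 7 supporting cell and 7 stria vascularis markers. Lower were 7 of 8 spiral ganglion neuron, 7 of 7 neutrophil and 6 of 6 macrophage markers, but 4 of 11 skeletal muscle and 3 of 6 bone and cartilage markers. Much RNA of other cells remained in the pulldown. Summed Schwann cell markers had a median of 4727 scaled CPM there and 9293 in the whole cochlea, beside 946 and 243 for outer hair cell markers. In such bulk RNA, fewer cells of a type and less RNA per cell cannot be told apart. In P8 input 2, the second whole-cochlea library at P8, 58.3% of gene reads fell in the single gene Gm42418. That library held the lowest whole-cochlea value of 32 of the 65 genes, and P28 input 2 the highest value of 25. Among pulldown libraries, P14 IP 1 held the highest value of 26 genes and P28 IP 2 of 14, and P14 IP 1 had the lowest TMM factor of the pulldown (0.597), with 10.2% of its gene reads in Gm42418.

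More of the chaperone genes were lower than higher in the pulldown. Their summed level was 3886 ± 858 scaled CPM (SD, n = 11) in the pulldown and 5674 ± 1052.5 in the whole cochlea. Hsp90ab1 alone made up 553 and 1415 of these sums, more than any other gene. Over all ages, 29 of the 65 tested genes were lower in the pulldown and 6 were higher (limma, p adjusted by Benjamini-Hochberg across every gene tested, called under 0.05). Of all 20176 genes, 21.2% were called lower and 19% higher, 40.2% in all. The median log2 difference of the 65 genes was -0.37, beside 0.00 over all genes tested, noncoding ones included. Medians of protein-coding genes by exon length are given below. With CPM scaled as deposited the counts were 13 lower and 5 higher, the fit that lowered the count most. The share of all genes called in that fit is not given here.

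**Figure D1:**
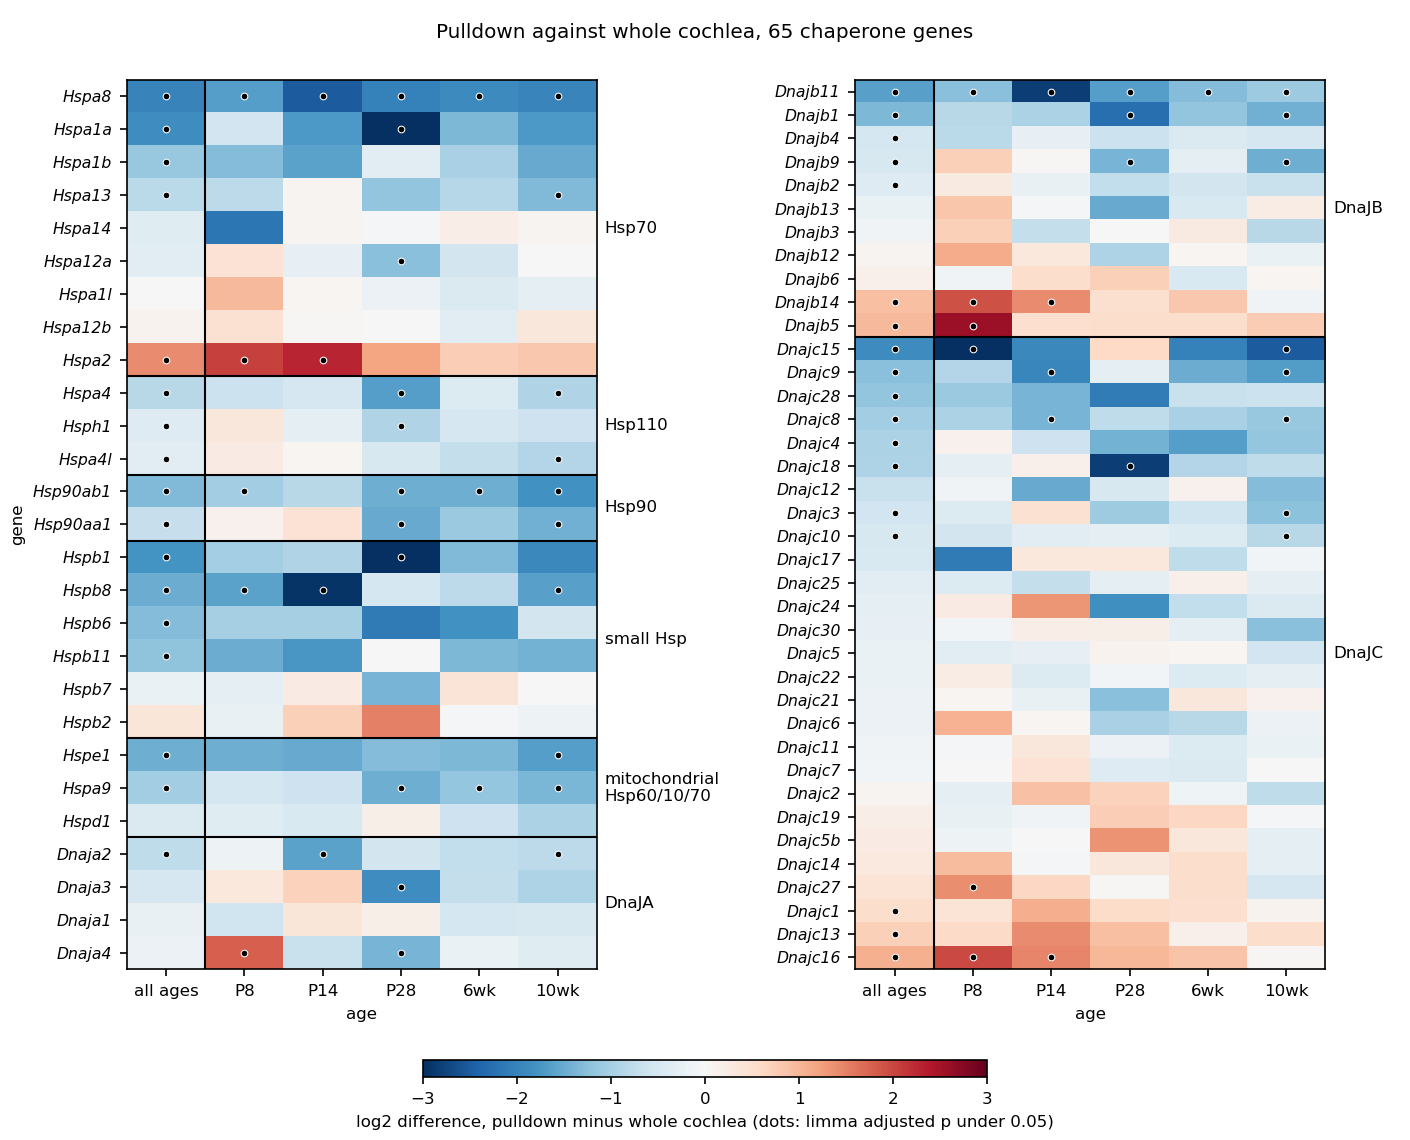
Log2 difference of pulldown minus whole cochlea for the 65 tested genes (rows, grouped by family and ordered by the all-ages value) over all ages and at each age (columns). Blue is lower and red higher in the pulldown, colours stop at 3 in either direction, and dots mark limma adjusted p under 0.05. Hspa8 and Dnajb11 carry dots in every column, and the red entries of Hspa2, Dnajb14 and Dnajc16 are deepest at P8 and P14.

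Among the cytosolic Hsp70 genes, the constitutive Hspa8 and the testis-enriched Hspa2 went opposite ways. Hspa8 (ENSMUSG00000015656, GRCm38 chr9:40800984-40810087, plus strand) encodes Hsc70, the housekeeping Hsp70 that also uncoats clathrin vesicles. Its level was 16.8 and 12.4 at P8, 33.4 and 14.5 at P14, 40.5 and 32.1 at P28, 53.1 and 30.9 at 6 weeks and 45.8, 15.5 and 21.5 at 10 weeks in the pulldown and 36.0 and 62.1 at P8, 170.2 and 97.0 at P14, 124 and 181 at P28, 176 and 139 at 6 weeks and 107, 96.1 and 102 at 10 weeks in the whole cochlea. Every pulldown library lay below both or all whole-cochlea libraries of its age, and across ages only P8 input 1 lay within the pulldown range. The log2 difference was -2.01 ± 0.21 (SE), adjusted p = 8.19e-08 (limma), and it was called at each of the 5 ages, from -1.65 at P8 to -2.49 at P14.

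Hspa2 (ENSMUSG00000059970, chr12:76404176-76406938, plus strand), a member of the same family best known from spermatogenesis, was at 95.0 and 142 at P8, 201 and 78.7 at P14, 99.0 and 33.7 at P28, 77.1 and 75.2 at 6 weeks and 110.5, 82.4 and 75.8 at 10 weeks in the pulldown. In the whole cochlea it was at 32.7 and 22.4 at P8, 16.3 and 38.8 at P14, 36.2 and 17.1 at P28, 46.8 and 44.2 at 6 weeks and 50.5, 55.4 and 43.9 at 10 weeks. Pulldown libraries were higher at every age but P28, where IP 2 lay below the higher whole-cochlea library. The log2 difference was 1.41 ± 0.22 (SE), adjusted p = 2.10e-05 (limma), and the gene was called at P8 (2.06) and P14 (2.28) when ages were tested alone. Hspa13, an Hsp70 of the endoplasmic reticulum, was lower (-0.82), while Hspa12a, Hspa12b, Hspa14 and Hspa1l were not called over all ages. In all, 1 of 9 tested Hsp70 genes was higher in the pulldown and 4 were lower.

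The stress-inducible Hspa1a and Hspa1b, neighbours on chromosome 17 that encode nearly the same protein, were low in both fractions. Hspa1a (chr17:34969190-34972156, minus strand) was at 0.117 and 0 at P8, 0.767 and 3.17 at P14, 0.115 and 0 at P28, 4.65 and 3.42 at 6 weeks and 1.88, 3.24 and 3.23 at 10 weeks in the pulldown and 1.49 and 0 at P8, 4.203 and 14.6 at P14, 10.6 and 20.3 at P28, 16.8 and 8.14 at 6 weeks and 11.1, 12.2 and 10.6 at 10 weeks in the whole cochlea. From P14 on all pulldown libraries were below those of the whole cochlea of the same age, and the log2 difference was -1.85 ± 0.35 (SE), adjusted p = 0.00017 (limma). Hspa1b (chr17:34956436-34959238, minus strand) was at 0.700 and 0 at P8, 1.21 and 0.0746 at P14, 6.66 and 38.1 at P28, 17.2 and 3.51 at 6 weeks and 4.31, 4.59 and 5.25 at 10 weeks in the pulldown and 1.96 and 2.45 at P8, 4.78 and 2.83 at P14, 13.1 and 32.6 at P28, 25.3 and 11.1 at 6 weeks and 12.2, 18.9 and 15.4 at 10 weeks in the whole cochlea. Apart from P28 and 6 weeks, where ranges overlapped, its pulldown libraries lay below the whole-cochlea ones, with a log2 difference of -1.15 ± 0.38 (SE), adjusted p = 0.02 (limma), and without 6wk IP 2 or 6wk input 1 its adjusted p was 0.064 and 0.0594. The pair share 1716 windows of 50 bases, 66.3% of the sequence of Hspa1a and 62.3% of that of Hspa1b lie in transcripts of other genes, and reads aligned to several places, 7.95% to 51.4% of a library's total, were not counted to genes. Their levels are therefore lower limits, and the split of reads between them is uncertain.

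The stretches upstream of both genes, and of the inducible small heat shock protein gene Hspb1, are printed to show how alike the first pair are and where a heat shock element lies. Heat shock factor 1 binds inverted repeats of GAA, and capitals mark GAANNTTC, a head-to-head pair that reads the same on both strands. Each sequence is the 250 bases before the RefSeq start, on the gene's strand, in GRCm38.p6: chr17:34972157-34972406 (minus) for Hspa1a, chr17:34959239-34959488 (minus) for Hspa1b and chr5:135887669-135887918 (plus) for Hspb1. None of the 3 overlaps an annotated exon.
Hspa1a: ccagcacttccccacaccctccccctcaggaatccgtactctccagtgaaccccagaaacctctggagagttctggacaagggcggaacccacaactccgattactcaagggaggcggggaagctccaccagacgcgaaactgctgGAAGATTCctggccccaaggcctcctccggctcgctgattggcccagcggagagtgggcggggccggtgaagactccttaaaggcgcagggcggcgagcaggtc
Hspa1b: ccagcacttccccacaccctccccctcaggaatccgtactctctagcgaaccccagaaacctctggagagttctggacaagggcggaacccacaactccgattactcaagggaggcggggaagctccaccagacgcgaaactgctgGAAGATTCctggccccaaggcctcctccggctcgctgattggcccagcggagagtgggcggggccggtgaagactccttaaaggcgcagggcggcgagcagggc
Hspb1: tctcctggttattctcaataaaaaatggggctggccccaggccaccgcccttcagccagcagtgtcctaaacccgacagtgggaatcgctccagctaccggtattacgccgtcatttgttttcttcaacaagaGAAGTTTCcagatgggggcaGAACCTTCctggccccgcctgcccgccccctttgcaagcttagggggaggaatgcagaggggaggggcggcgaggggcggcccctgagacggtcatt
The first 2 differ at 3 of 250 bases (98.8% the same), and each holds GAANNTTC at the same place, while Hspb1 holds it at 2 places. Promoter windows (250 bases before to 50 after the start) were found for 56 of the 70 genes. GAANNTTC occurred in 14 of the 56 (25%) and in 9.04% of 27025 genes. The opposite pair, TTCNNGAA, occurred in 6 (10.7%) beside 9.60%. A 3-repeat form, GAANNTTC followed after 2 bases by a further GAA, searched on both strands and holding both pairs, occurred in 4 (7.14%) beside 0.662%. These counts are of genes and not of separate elements. The matches of Hspd1 and Hspe1 are the same bases, and those of Hspa1a and Hspa1b lie in nearly identical stretches. Of the 12 tested genes with GAANNTTC, 7 were lower in the pulldown, and of the 39 with a window but without it, 16 were lower and 6 higher. A match is a description of these letters and was not tested for binding.

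All 3 Hsp110 genes and both Hsp90 genes were lower in the pulldown over all ages. Hsp90ab1 (ENSMUSG00000023944, chr17:45567775-45573271, minus strand), the constitutive cytosolic Hsp90, was the most abundant of the 70 per length. It reached 472 ± 87.7 scaled CPM per kb of exon (SD, n = 11) in the whole cochlea and 184 ± 49.3 in the pulldown. Its level was 505 and 524 at P8, 967 and 462 at P14, 534 and 608 at P28, 499 and 532 at 6 weeks and 577, 434 and 435 at 10 weeks in the pulldown and 1113 and 1014 at P8, 1335 and 1049 at P14, 1489 and 1689.8 at P28, 1394 and 1433 at 6 weeks and 1699, 1643 and 1706 at 10 weeks in the whole cochlea. All 11 pulldown libraries lay below all 11 whole-cochlea libraries, and the log2 difference was -1.32 ± 0.13 (SE), adjusted p = 2.46e-08 (limma). It was called at every age but P14, where the higher pulldown value came from IP 1.

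Hsp90aa1 (chr12:110690605-110702728, minus strand), the inducible form, was at 102 and 82.1 at P8, 472 and 190.1 at P14, 173 and 105 at P28, 145 and 189 at 6 weeks and 133, 67.8 and 76.4 at 10 weeks in the pulldown and 100.01 and 70.7 at P8, 238 and 209 at P14, 307 and 490.1 at P28, 323 and 396 at 6 weeks and 239, 217 and 265 at 10 weeks in the whole cochlea. At P8 the fractions overlapped, at P14 IP 1 held the highest pulldown value, and from P28 on all pulldown libraries were lower. Over all ages the log2 difference was -0.70 ± 0.17 (SE), adjusted p = 0.00202 (limma), with -1.52 at P28 and -1.43 at 10 weeks, both called. The Hsp110 genes, which exchange the nucleotide of Hsp70, moved less: Hspa4 by -0.82, Hsph1 by -0.40 and Hspa4l by -0.35 over all ages. At P8 Hsph1 (91.7 and 83.8) and Hspa4l (90.7 and 81.0) lay above their whole-cochlea libraries (75.8 and 63.8, 71.9 and 71.9), and neither was called. With CPM as deposited Hspa4, Hspa4l, Hsph1 and Hsp90aa1 lost the all-ages call (limma adjusted p of 0.126, 0.774, 0.703 and 0.227). Hsph1 was no longer called without P28 input 2 (adjusted p = 0.0577), the library in which it was highest (311 beside 63.8 to 179.7 in the other 10 whole-cochlea libraries).

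Of 6 tested small heat shock protein genes, 4 were lower in the pulldown. Hspb8, which works with the co-chaperone Bag3 in autophagy of damaged proteins, was at 10.3 and 8.65 at P8, 6.25 and 8.73 at P14, 38.9 and 70.5 at P28, 46.4 and 35.3 at 6 weeks and 23.0, 24.8 and 18.9 at 10 weeks in the pulldown and 30.7 and 30.5 at P8, 70.02 and 58.2 at P14, 70.2 and 82.7 at P28, 80.7 and 60.8 at 6 weeks and 72.5, 74.2 and 65.1 at 10 weeks in the whole cochlea. Pulldown libraries were lower at each age except P28, where 1 of them slightly exceeded the lower whole-cochlea library, and the log2 difference was -1.50 ± 0.17 (SE), adjusted p = 2.59e-07 (limma). Hspb1 (Hsp25, which also stabilises actin filaments) was at 1.55 and 0.106 at P8, 28.8 and 1.75 at P14, 5.97 and 0.0866 at P28, 11.4 and 9.23 at 6 weeks and 7.34, 9.00 and 6.12 at 10 weeks in the pulldown and 7.80 and 0.307 at P8, 22.01 and 11.5 at P14, 24.8 and 50.5 at P28, 29.1 and 25.1 at 6 weeks and 27.6, 32.1 and 34.8 at 10 weeks in the whole cochlea. Its ranges overlapped at P8 and P14 and were separate from P28 on, with a log2 difference of -1.78 ± 0.44 (SE), adjusted p = 0.00251 (limma). Hspb6 (-1.30), a relative expressed in muscle, was below the whole cochlea at every age without overlap, and Hspb11 (-1.20), known as the intraflagellar transport protein Ift25, was also lower. Hspb2 and Hspb7 were not called, and Hspb2 overlaps Cryab, with which it shares 203 windows.

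Of the chaperonin pair of the mitochondrial matrix, Hspe1 was called lower and Hspd1 was not called. Hspe1 (Hsp10, ENSMUSG00000073676, chr1:55088132-55091307, plus strand) was at 8.66 and 26.6 at P8, 32.7 and 10.8 at P14, 20.9 and 19.2 at P28, 12.3 and 19.2 at 6 weeks and 17.5, 11.2 and 14.8 at 10 weeks in the pulldown and 49.1 and 39.3 at P8, 78.7 and 39.5 at P14, 35.3 and 72.3 at P28, 39.4 and 42.3 at 6 weeks and 45.5, 43.4 and 53.3 at 10 weeks in the whole cochlea. All 11 pulldown libraries lay below all 11 whole-cochlea libraries, with a log2 difference of -1.46 ± 0.24 (SE), adjusted p = 4.23e-05 (limma). Its head-to-head neighbour Hspd1 (Hsp60, chr1:55077835-55088243, minus strand) was at 25.0 and 56.3 at P8, 25.9 and 40.6 at P14, 43.6 and 123 at P28, 39.6 and 37.7 at 6 weeks and 64.1, 36.2 and 36.0 at 10 weeks in the pulldown and 53.4 and 44.6 at P8, 47.2 and 42.7 at P14, 38.9 and 108 at P28, 60.8 and 59.2 at 6 weeks and 82.3, 81.7 and 92.8 at 10 weeks in the whole cochlea. Its fractions overlapped at P8 and P28, and the log2 difference was -0.44 ± 0.22 (SE), adjusted p = 0.107 (limma), so that it was not called. Hspa9, the Hsp70 of the matrix, was lower in each age without overlap, by -1.03. The promoter windows of Hspd1 and Hspe1 share 1 stretch of 4 inverted repeats, upstream of a RefSeq start of each gene and inside an annotated exon of Hspd1, at chr1:55088059-55088076 (GRCm38.p6, plus strand, GAA and TTC in capitals).
Hspd1 and Hspe1: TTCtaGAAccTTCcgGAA
Here 3 of the 65 genes (Dnajb11, Hsp90ab1 and Hspe1) had all pulldown libraries below all whole-cochlea libraries, a pattern held by 2.65% of all genes, and none had the opposite pattern, held by 1.6%. Within each age taken alone, 6 genes (those 3, Hspa8, Hspa9 and Hspb6) were lower without overlap beside 6.42% of all genes, and none was higher beside 4.46%.

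**Figure D2:**
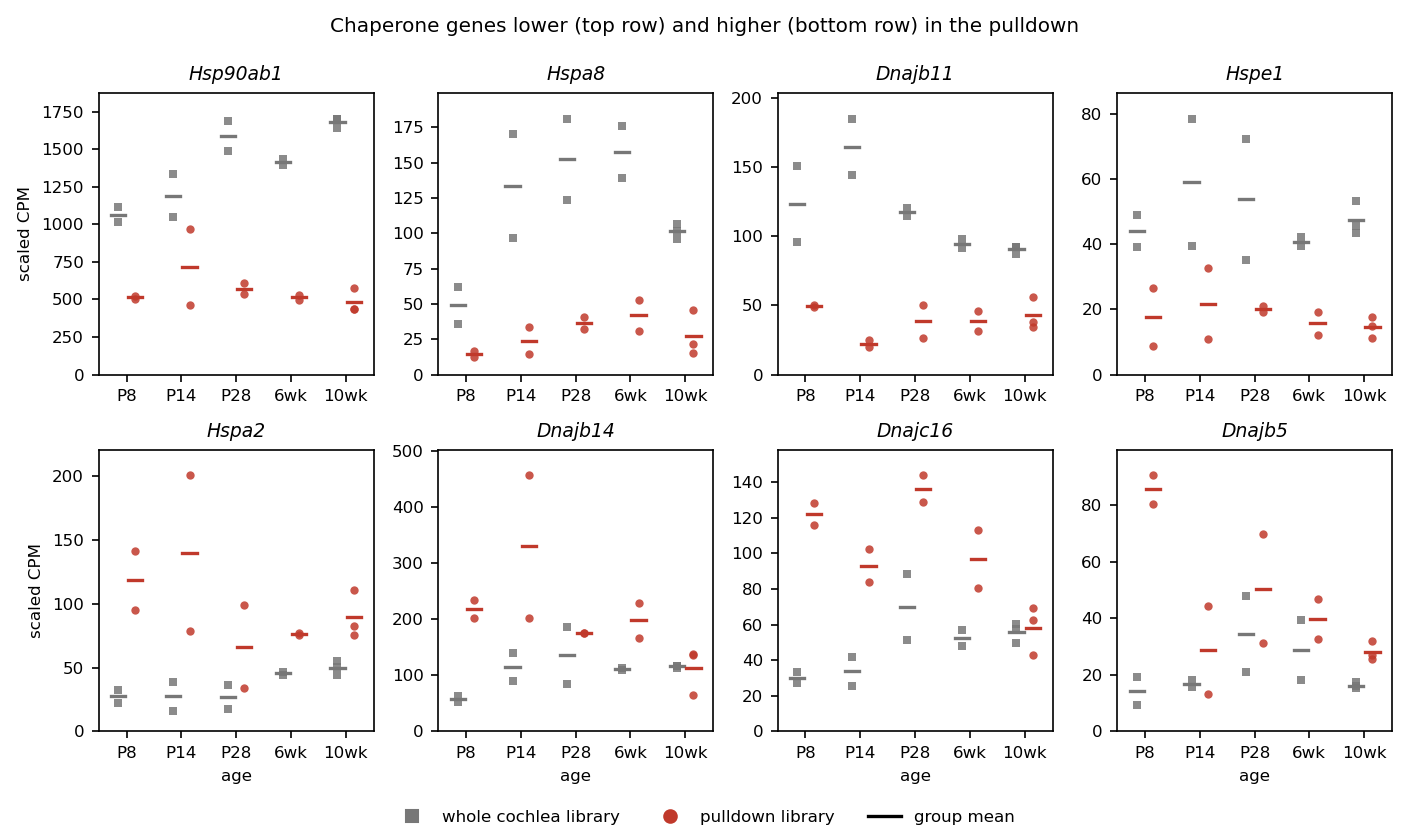
Scaled CPM (vertical axes, from 0) of 8 genes in each library by age; grey squares are whole-cochlea libraries, red circles pulldown libraries and bars group means. Hsp90ab1, Dnajb11 and Hspe1 show no overlap between the fractions, and Hspa2, Dnajb14, Dnajc16 and Dnajb5 have higher pulldown means at each age, with the exception of Dnajb14 at 10 weeks.

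DnaJ genes of the endoplasmic reticulum were called in both directions. The 4 lumenal ones, which help fold secretory proteins and dispose of misfolded ones, were all lower in the pulldown: Dnajb11 (-1.62), Dnajc3 (-0.56), Dnajb9 (-0.48) and Dnajc10 (-0.48). Dnajb11 (ERdj3, ENSMUSG00000004460, chr16:22857845-22879634, plus strand) was at 50.4 and 48.8 at P8, 19.6 and 25.2 at P14, 50.5 and 26.7 at P28, 45.9 and 31.5 at 6 weeks and 56.1, 34.6 and 37.8 at 10 weeks in the pulldown and 151 and 95.8 at P8, 185 and 144 at P14, 120.1 and 115 at P28, 91.2 and 97.7 at 6 weeks and 92.4, 87.4 and 91.9 at 10 weeks in the whole cochlea. Its highest pulldown value was below its lowest whole-cochlea value, the log2 difference was -1.62 ± 0.16 (SE), adjusted p = 3.11e-08 (limma), and it was called at each of the 5 ages. Dnajb9 was close to the threshold (adjusted p = 0.041) and was not called in 13 of the 22 fits that left out 1 library, with adjusted p of 0.0527 to 0.0927 in those. Dnajc3, alone among the 56 windows, held the ER stress element (CCAAT and CCACG with 9 bases between them, on either strand), present in 0.137% of genes.

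Of 5 DnaJ genes grouped here as membrane proteins of the reticulum, Dnajb14 and Dnajc1 were higher in the pulldown, Dnajc18 was lower (-0.92), and Dnajb12 and Dnajc14 were not called. The group is not complete for membrane-bound DnaJ proteins and leaves out Dnajc16, which was higher and is given below. Dnajb14 (chr3:137867675-137916557, plus strand) was at 235 and 203 at P8, 457 and 203 at P14, 176 and 175 at P28, 167 and 229 at 6 weeks and 65.6, 138 and 136 at 10 weeks in the pulldown and 52.4 and 62.4 at P8, 140.1 and 90.4 at P14, 187 and 84.2 at P28, 109 and 114 at 6 weeks and 113, 117 and 116 at 10 weeks in the whole cochlea. The fractions were apart at P8, P14 and 6 weeks and overlapped at P28 and 10 weeks, with a log2 difference of 0.90 ± 0.18 (SE), adjusted p = 0.000273 (limma). Dnajc1 was higher by 0.54, and no longer called without P8 input 2, P14 IP 1 and P28 IP 2 together (adjusted p = 0.0902). Dnajc18 was not called without P8 input 2 (adjusted p = 0.0532) or P14 IP 2 (0.0752).

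Among the other DnaJ genes, Dnajc16, a membrane-bound DnaJ protein, had the smallest adjusted p of the 6 higher genes. It was at 116 and 129 at P8, 83.7 and 103 at P14, 129 and 144 at P28, 80.7 and 113 at 6 weeks and 43.2, 62.4 and 69.4 at 10 weeks in the pulldown and 27.0 and 33.4 at P8, 25.7 and 41.9 at P14, 51.3 and 88.7 at P28, 56.7 and 48.1 at 6 weeks and 57.4, 60.3 and 49.5 at 10 weeks in the whole cochlea. The fractions were apart at every age but 10 weeks, and the log2 difference was 1.07 ± 0.15 (SE), adjusted p = 7.28e-06 (limma). Dnajb5, a relative of the inducible Dnajb1, was at 80.4 and 90.5 at P8, 13.3 and 44.2 at P14, 31.0 and 69.7 at P28, 32.5 and 46.6 at 6 weeks and 25.4, 27.0 and 32.0 at 10 weeks in the pulldown and 19.2 and 9.35 at P8, 15.5 and 18.2 at P14, 21.1 and 47.8 at P28, 18.0 and 39.3 at 6 weeks and 16.0, 15.2 and 17.4 at 10 weeks in the whole cochlea. Pulldown libraries were separate and higher at P8 and 10 weeks, with overlap in between, and the log2 difference was 0.98 ± 0.25 (SE), adjusted p = 0.00268 (limma). Dnajc13, an endosomal sorting protein, was higher by 0.72.

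On the lower side, Dnajb1 (Hsp40), the DnaJ partner induced with Hspa1a, was at 30.4 and 29.5 at P8, 31.9 and 18.5 at P14, 28.1 and 6.97 at P28, 32.8 and 14.8 at 6 weeks and 18.2, 24.0 and 16.8 at 10 weeks in the pulldown and 53.1 and 54.6 at P8, 78.8 and 29.3 at P14, 52.7 and 99.5 at P28, 65.1 and 41.4 at 6 weeks and 53.0, 57.4 and 52.8 at 10 weeks in the whole cochlea. It was lower at each age but P14, where the ranges met, with a log2 difference of -1.34 ± 0.24 (SE), adjusted p = 0.000125 (limma). Dnajc15, a co-chaperone of mitochondrial protein import, was at 2.95 and 0.177 at P8, 18.7 and 8.43 at P14, 16.5 and 15.5 at P28, 7.602 and 5.10 at 6 weeks and 7.24, 7.29 and 5.12 at 10 weeks in the pulldown and 21.7 and 27.9 at P8, 84.0 and 30.5 at P14, 44.8 and 1.71 at P28, 25.1 and 32.2 at 6 weeks and 41.9, 38.8 and 43.5 at 10 weeks in the whole cochlea. It was lower outside P28, where P28 input 2 fell to 1.71, and the log2 difference was -1.88 ± 0.39 (SE), adjusted p = 0.00043 (limma). Dnajc9 (a histone chaperone), Dnajc28, Dnajc8 (a splicing protein), Dnajc4, Dnaja2, Dnajb4 and Dnajb2 were lower by -1.25, -1.18, -1.04, -0.95, -0.77, -0.53 and -0.38 in that order. Of these, Dnajc28 lost its call in 6 of the 22 fits without 1 library (adjusted p up to 0.0795), Dnajc4 in 4 (up to 0.0765) and Dnajb4 in 1, without P8 IP 2 (0.0579). Dnajc5 (cysteine string protein), which guards synaptic vesicle release, was at 158 and 174 at P8, 213 and 182 at P14, 167 and 374 at P28, 193 and 222 at 6 weeks and 108, 138 and 121 at 10 weeks in the pulldown and 199.8 and 212 at P8, 237 and 234 at P14, 226 and 236 at P28, 192 and 206 at 6 weeks and 191, 177 and 181 at 10 weeks in the whole cochlea. It was not called, with overlap at P28 and 6 weeks and a log2 difference of -0.20 ± 0.13 (SE), adjusted p = 0.234 (limma). By family, 1 of 4 DnaJA genes was lower, 5 of 11 DnaJB genes were lower and 2 higher, and 8 of 27 DnaJC genes were lower and 3 higher.

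The values above count reads that the authors' tables give to each gene, and several chaperone genes share long identical stretches with processed pseudogenes, copies of the spliced mRNA elsewhere in the genome. Of 13 such genes, 4 (Hspa8, Dnaja1, Dnajb6 and Dnajc19) had more reads listed under their copies than under the gene in the whole cochlea, and 1 (Hspa8) in the pulldown. The largest was Gm15459, which shares 1642 windows of 50 bases with Hspa8 and was listed at 418 ± 170.2 scaled CPM (SD, n = 11) in the whole cochlea and 87.3 ± 39.6 in the pulldown. Hspa8 itself was listed at 117 ± 46.6 and 28.8 ± 13.8. Gm12346, which shares 1664 windows with Hsp90aa1, was at 205 ± 90.7 and 97.0 ± 60.2. Which locus a read came from cannot be told apart from these tables.

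Reads of 30 annotated processed pseudogenes sharing at least 100 such windows were therefore added to the 13 genes they copy and the fit was repeated, an alternative chosen after the data were seen. Hspa8 was then at 332 and 369 at P8, 516 and 411 at P14, 477 and 562 at P28, 689 and 573 at 6 weeks and 825, 879 and 887 at 10 weeks in the whole cochlea, and at 108 and 128 at P8, 117 and 69.4 at P14, 96.3 and 113 at P28, 157 and 92.3 at 6 weeks and 254, 148 and 134 at 10 weeks in the pulldown. All 11 summed pulldown values were below all 11 whole-cochlea values, and the log2 difference was -2.18 ± 0.14 (SE; limma adjusted p = 1.29e-10). Another 3 genes that had not been called were called lower once their copies were included. Dnaja1, a farnesylated cytosolic DnaJ, went from -0.21 to -0.89 (adjusted p = 0.474 and 0.00018) as Gm15542 and Gm7816 added 67.8 and 34.7 to its whole-cochlea level of 69.2. Dnajb6, which keeps aggregation-prone proteins soluble, went from 0.15 to -0.66 (0.583 and 0.000833). Hspd1 went from -0.44 to -0.77 (0.107 and 0.00158) with the reads of Hspd1-ps3, so that with them both parts of the chaperonin were lower. With the copies added, 32 of 65 genes were lower and 6 higher, counts given without the share of all genes called in that fit. Between adult and young libraries the copies added 1 call in each fraction (limma). Hspa8 was called higher in the adult whole cochlea (0.70, adjusted p = 0.0458, from 0.17 without the copies), which made 13 genes there. Hspb1 was called higher in the adult pulldown (1.45, adjusted p = 0.0406, from 0.528), which made 7.

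**Figure D3:**
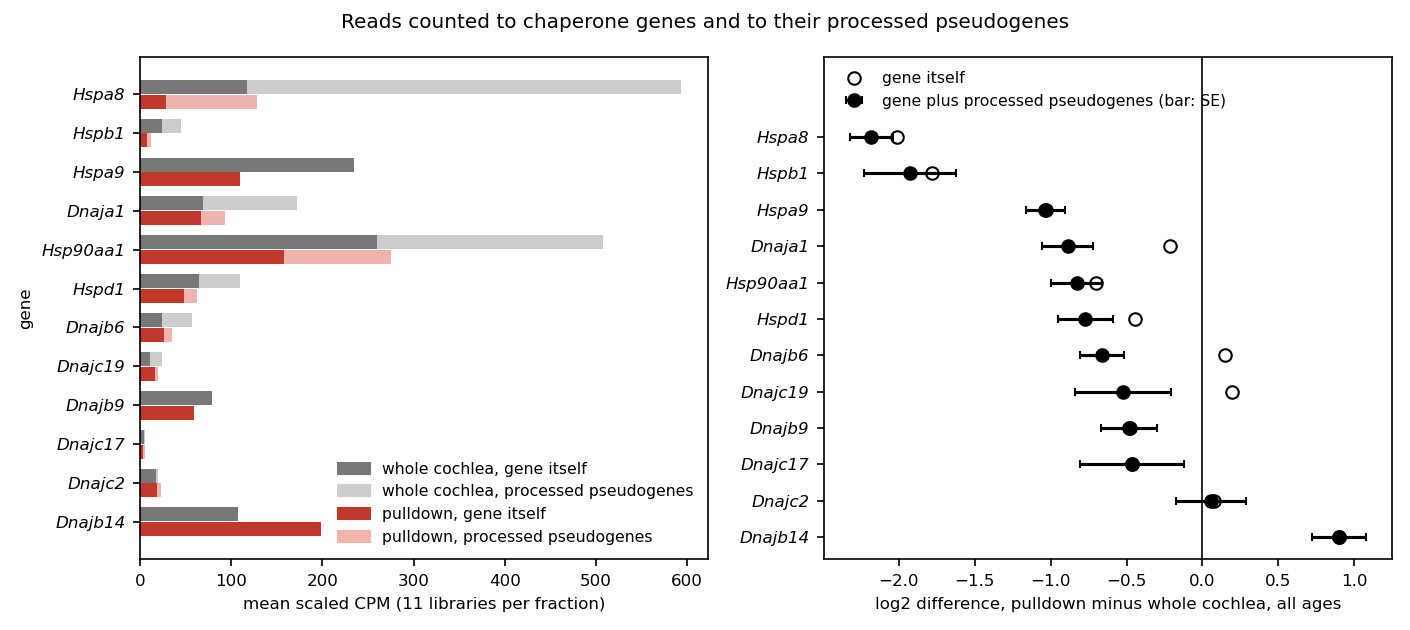
Left, mean scaled CPM (from 0, 11 libraries per fraction) of genes with such processed pseudogenes and at least 5 summed scaled CPM in the whole cochlea, dark for reads listed under the gene and light for reads listed under its pseudogenes. Right, the all-ages log2 difference of pulldown minus whole cochlea for the gene (open) and for the sum (filled, bars are SE). Hspa8 gains the most, and Dnaja1, Dnajb6 and Hspd1 move left.

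Per kb of exon and without pseudogenes, Hsp90ab1 led the whole cochlea, followed by Hsp90aa1 at 66.0 ± 30.6 scaled CPM per kb (SD, n = 11), Hspa9 at 54.5 ± 16.3, Hspa4 at 48.8 ± 13.0, Dnaja2 at 46.6 ± 8.29 and Dnajc3 at 46.4 ± 8.95. From Hsp90aa1 to Dnajc3 neighbours differed by less than their spread. In the pulldown the order after Hsp90ab1 was Hsp90aa1 at 40.2 ± 28.8, Hspa2 at 36.8 ± 16.4, Dnajc3 at 33.5 ± 22.6, Dnajc7 at 28.6 ± 10.1 and Dnaja2 at 27.7 ± 6.92, again within the spread of neighbours. The order leaves out the reads listed under the copies of Hspa8. Lower genes tended to be shorter: Pearson's r between the all-ages difference and log exon length was 0.29 over the 65 genes and 0.36 over 15383 protein-coding genes, a description in which genes share libraries and are not replicates. Among the 65, the median difference was -0.49 for genes under 3931 exon bases and -0.31 for the others. Among protein-coding genes these medians were -0.35 and 0.16. The part of transcript length in the differences was not tested.

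The partners of these chaperones, a list of other genes, were mostly lower in the pulldown as well. Of 37 tested co-chaperones, regulators and related chaperones, 21 were lower and 4 higher, beside the 21.2% and 19% of all genes. The lower ones included Cryab (-1.95), the alpha-B crystallin; Fkbp4 (-1.70), Ahsa1 (-1.57), Stip1 (-1.56) and Cdc37 (-1.50), which serve the Hsp90 cycle; and Bag1 (-1.69), a nucleotide exchange factor of Hsp70. The higher ones included Grpel2 (1.59), a mitochondrial nucleotide exchange factor, Hsf1 (0.74), the heat shock transcription factor, and Cdc37l1 (0.52). Of 8 tested subunits of TRiC, the cytosolic chaperonin for actin and tubulin, 7 were lower, and of 6 subunits of prefoldin, which hands it clients, 4 were lower. Rpl22, the tagged ribosomal protein, was lower too (-0.89, adjusted p = 1.44e-05, limma).

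Age by age, the calls of higher genes were at P8 and P14, and P28 and 10 weeks had the most calls of lower genes. At P8, 6 genes were higher and 5 lower in the pulldown (5.58% and 4.23% of all genes, 9.81% in all), and at P14 3 and 6 (8.82% and 7.32%, 16.1% in all). The genes called at later ages were all lower: 15 at P28 (11.5% of all genes), 4 at 6 weeks (3.73%) and 18 at 10 weeks (8.46%), where 8.76%, 3.65% and 5.82% of all genes were higher. In either direction, 20.2% of all genes were called at P28, 7.38% at 6 weeks and 14.3% at 10 weeks. Of the 65 genes, 16.9% were called at P8, 13.8% at P14, 23.1% at P28, 6.15% at 6 weeks and 27.7% at 10 weeks. The shares at P14 and 6 weeks were below those of all genes, and the share at P28 was near it. Of 13 outer hair cell markers, 3 were called higher at P28, 2 at 6 weeks and 6 at 10 weeks. At P8 the higher genes were Dnajb5 (2.58), Hspa2, Dnajc16 (1.99), Dnajb14 (1.91), Dnaja4 (1.79) and Dnajc27 (1.39), and at P14 Hspa2, Dnajc16 and Dnajb14. The largest lower values at P28 were those of Hspa1a (-3.90) and Hspb1 (-3.73), genes that share much of their sequence with others. In P28 IP 2 they were at 0 and 0.0866, while Hspa1b, which shares windows with Hspa1a, was at 38.1. Of the windows of Hspb1, 50.1% lie in other genes. With the reads of its processed pseudogene Hsp25-ps1 added, Hspb1 was at 16.5 in that library. With CPM as deposited the higher and lower counts were 8 and 0 at P8, 0 and 3 at P14 and at P28, and 0 and 2 at 10 weeks, with no call at 6 weeks. Those counts stand without the shares of all genes called in that fit. Leaving out P8 IP 2 gave 2 calls at P8, leaving out P8 input 2 gave 4 and leaving out P8 input 1 gave 6. Counts fell to 1 at 6 weeks without 6wk IP 2, 6wk input 1 or 6wk input 2. At 10 weeks they fell to 8 or 9 without any of 10wk IP 2, 10wk IP 3 and the 3 whole-cochlea libraries and to 11 without P8 input 2, and at P14 they rose to 14 without P28 input 2.

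Whether the enrichment itself changed with age was tested as the adult (P28, 6 and 10 weeks) minus young (P8 and P14) difference of pulldown against whole cochlea. By limma 0 of 65 genes were called at an adjusted p under 0.05, beside 0.139% of all genes (0.0397% higher and 0.0991% lower). Of the 65, 20 had an unadjusted p under 0.05, edgeR called 1 (Hsp90aa1) and DESeq2 7. The matching shares of all genes are not given for these counts, so they have no background here. The smallest adjusted p was that of Hsp90aa1, with a change of -1.63 ± 0.35 (SE), adjusted p = 0.0637 (limma). Without P14 IP 2 the count was 12 and without P28 IP 1 it was 9, and without P14 IP 1, P28 IP 2, P28 input 1 or 10wk IP 1 it was 1.

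In the adult whole cochlea, 12 of the 65 genes were called and all 12 were higher than in the young, beside 3.34% of all genes higher and 2.09% lower, 5.43% in all. At an unadjusted p under 0.05 there were 23, and edgeR and DESeq2 called 8 and 15. These counts are given without the matching shares of all genes and cannot be set against the 5.43%. The 12 came from several families: Hspa1b, Hspa1a and Hspa12a (Hsp70), Hspa4l and Hsph1 (Hsp110), Hsp90aa1, Hspa9, and the DnaJ genes Dnajc6, Dnajc27, Dnajb2, Dnaja4 and Dnajc16. Hspa4l, an Hsp110, was at 71.9 and 71.9 at P8, 225 and 185 at P14, 299 and 269 at P28, 317 and 286 at 6 weeks and 353, 430.0 and 363 at 10 weeks. All 7 adult libraries lay above all 4 young ones, and the log2 difference was 1.39 ± 0.17 (SE), adjusted p = 1.80e-05 (limma). Dnajc6 (auxilin), a neuronal DnaJ that works with Hspa8 on clathrin coats, was at 7.54 and 7.36 at P8, 21.5 and 25.4 at P14, 57.6 and 88.8 at P28, 52.7 and 67.6 at 6 weeks and 38.3, 34.4 and 39.2 at 10 weeks. The groups were again apart, with a log2 difference of 1.94 ± 0.26 (SE), adjusted p = 4.09e-05 (limma).

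Of the 12, the heat-inducible Hspa1a, Hspa1b, Hsph1 and Hsp90aa1 had their highest whole-cochlea mean at P28. So did Dnajc6, Dnajb2, Dnaja4, Dnajc27 and Dnajc16, while Hspa4l, Hspa12a and Hspa9 had theirs at 10 weeks. Hsph1 was at 75.8 and 63.8 at P8, 86.6 and 90.2 at P14, 179.7 and 311 at P28, 144 and 143 at 6 weeks and 137, 167 and 166 at 10 weeks, with all adult above all young libraries and a log2 difference of 1.14 ± 0.19 (SE), adjusted p = 0.000625 (limma). Hspa1b rose by 2.25 ± 0.56 (SE), adjusted p = 0.0166, and Hsp90aa1 by 1.23 ± 0.25 (SE), adjusted p = 0.00333 (limma). P28 input 2 held the highest whole-cochlea value of Hspa1a, Hspa1b, Hspb1, Hsph1, Hsp90aa1, Hspa8 and Dnajb1, a set picked after the values were seen. It also held that of Dnajc6, Dnajb2, Dnaja4, Dnajc27 and Dnajc16, and of 25 of the 65 genes in all. The highest means at P28 therefore rest partly on this 1 library. Dnajc27, for example, was at 37.5 in P28 input 1 and 136 in P28 input 2. The count of 12 fell to 7 without P8 input 2, P14 input 1 or 6wk input 2, to 6 without 6wk input 1 and to 7 with CPM as deposited. In the fits without 1 library the lost calls were those of Hspa9 (11 fits, adjusted p up to 0.194), Dnaja4 (9, up to 0.399), Hspa1a (8, up to 0.25), Dnajc16 (6, up to 0.209), Hspa1b (4, up to 0.0718) and Hspa12a (4, up to 0.196).

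Markers of other cells moved over the same ages in the whole cochlea. Of 8 spiral ganglion neuron markers 7 were higher in the adult, with summed levels of 191 to 2603 scaled CPM in young and 3061 to 4824 in adult libraries. Of 6 bone and cartilage markers 4 were lower and 1 higher, with sums of 7831 to 19344 in young and 3194 to 4643 in adult libraries. Of 6 fibrocyte and mesenchyme markers 3 were lower and 1 higher. The part of these cells in the higher chaperone levels was not tested. Of the partner list, Fkbp5 (1.46), an immunophilin of Hsp90 induced by glucocorticoids, and Stip1 (0.84), which links Hsp70 to Hsp90, were the 2 of 37 called, both higher in the adult whole cochlea.

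**Figure D4:**
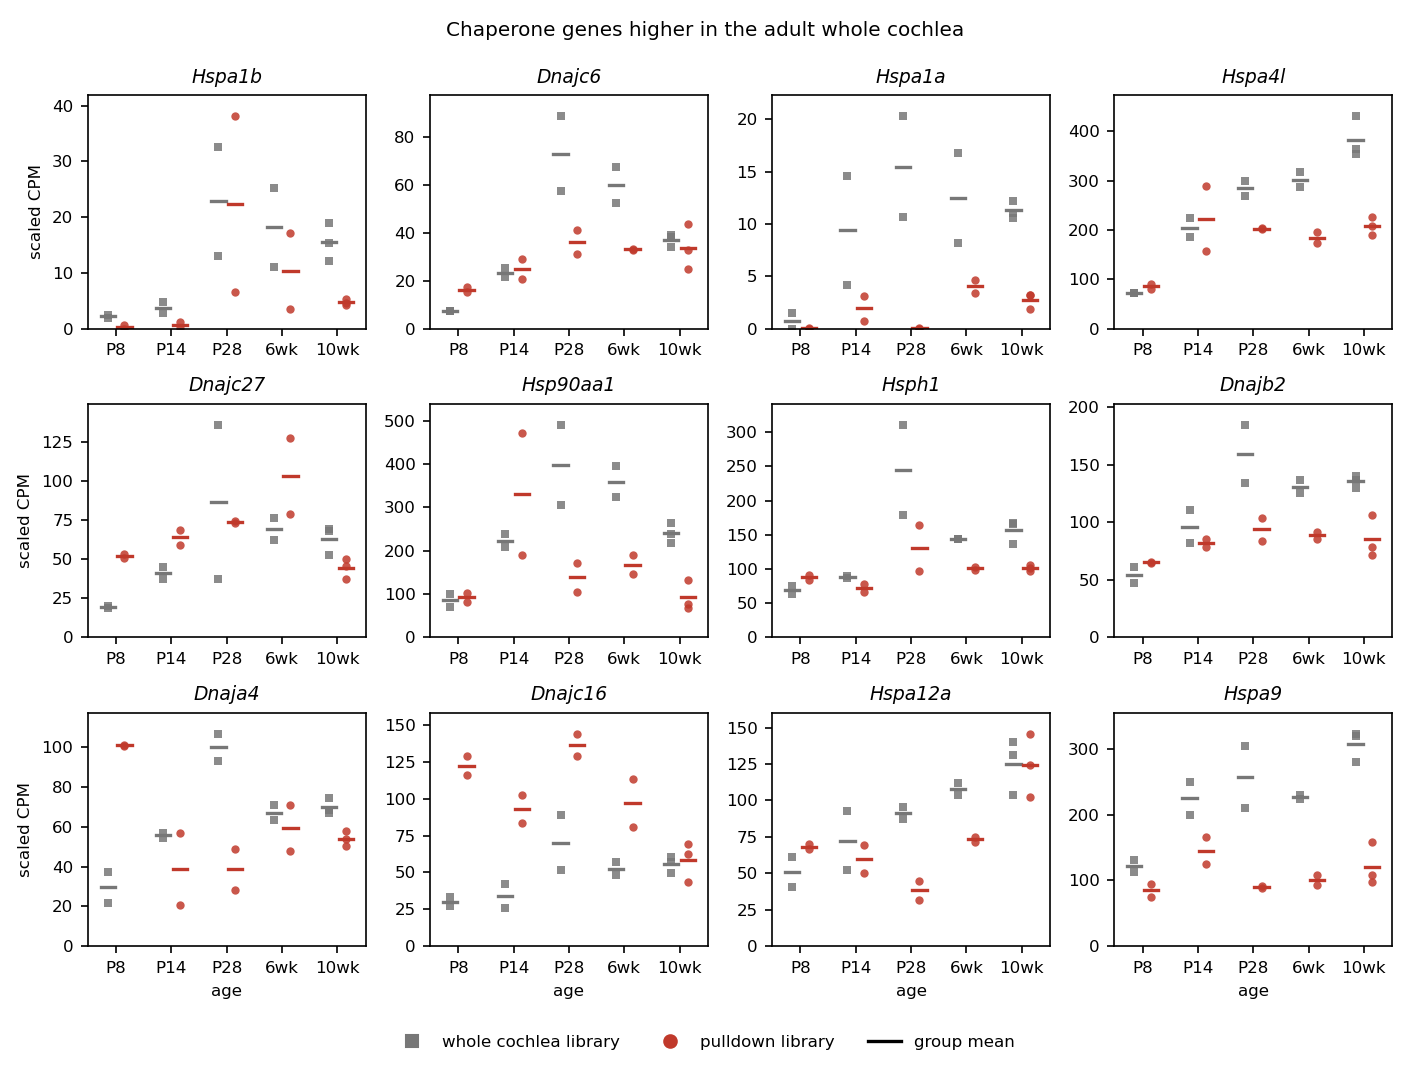
Scaled CPM (vertical axes, from 0) by age and library of the 12 genes called higher in the adult whole cochlea; grey squares are whole-cochlea libraries, red circles pulldown libraries and bars group means. Whole-cochlea values of Hspa4l, Dnajc6, Hsph1 and Dnajb2 are higher in all adult than in all young libraries, while in the pulldown Hspa1b alone of the 12 was called higher.

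Within the pulldown, 3 genes were higher in the adult and 3 lower, beside 4.05% and 5.52% of all genes, 9.57% in all. These 6 were 9.23% of the 65 genes, about the share of all genes. They are described as single genes, and their count does not set chaperone genes apart. Hspb8 had the smallest adjusted p of the 6. It was at 8.49 ± 1.68 (SD, n = 4) in young and 36.8 ± 17.7 (n = 7) in adult pulldown libraries, from 6.25 to 10.3 and from 18.9 to 70.5, without overlap. Its log2 difference was 1.99 ± 0.25 (SE), adjusted p = 2.64e-05 (limma), while in the whole cochlea it was 0.69 ± 0.25 (SE), adjusted p = 0.113. The change of its enrichment with age was 1.29 ± 0.35 (SE), adjusted p = 0.143 (limma) and was not called. Hspa1b was at 0 to 1.21 in young and 3.51 to 38.1 in adult pulldown libraries, also without overlap, with a log2 difference of 2.77 ± 0.56 (SE), adjusted p = 0.00323 (limma). Dnajc17, a nuclear splicing cofactor, was higher by 1.86 at low levels and was not called without P8 IP 2, P14 IP 1 or 6wk IP 2 (adjusted p of 0.0771 to 0.105).

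The 3 lower genes were Dnajb9, Dnajb12 and Dnajb3. Dnajb9 (ERdj4), a target of the unfolded protein response, was at 103 and 78.1 at P8, 130.3 and 57.7 at P14, 28.0 and 40.1 at P28, 53.1 and 62.9 at 6 weeks and 18.5, 44.1 and 32.7 at 10 weeks in the pulldown, with a log2 difference of -1.17 ± 0.27 (SE), adjusted p = 0.00801 (limma). Young and adult ranges met only through P14 IP 2 and 6wk IP 2, and without P14 IP 1 the adjusted p was 0.0587. In the whole cochlea its adult-to-young difference was 0.25 ± 0.27 (SE), adjusted p = 0.746 (limma). Dnajb12 (-1.23) was not called in 5 of the 22 fits without 1 library (adjusted p up to 0.232) nor without P8 input 2, P14 IP 1 and P28 IP 2 together (0.335), and Dnajb3 (-1.21), an intronless testis gene, was at most 5.49 in any library and lost its call in 13 of the 22 (up to 0.194). Without P8 IP 2 or 6wk IP 2 the count of 6 genes fell to 3, and without P14 IP 2 or P28 IP 1 it rose to 14 and 13. In the pulldown, 7 of 8 spiral ganglion neuron markers were also higher in the adult, with sums of 158 to 1665 in young and 1057 to 2031 in adult libraries, and 4 of 13 outer hair cell markers were lower, with sums of 946 to 2249 and 539.9 to 1586. Of 6 bone and cartilage markers 4 were lower and 1 higher, with sums of 3676 to 21133 in young and 543 to 1636 in adult pulldown libraries, without overlap. Of 7 supporting cell markers 4 were lower and 2 higher, and of 6 fibrocyte and mesenchyme markers 3 were lower and 1 higher. Their part in these values was not tested. Of the partner list, Fkbp5 (2.14) and Ahsa1 (0.98), an activator of the Hsp90 ATPase, were higher in the adult pulldown and Hsbp1 (-0.95), a binding protein of heat shock factor 1, was lower.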

How the data were processed

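The authors deposited 1 table of CPM per library, scaled to all reads in the table including 5 entries that name no gene (32.9% to 72.3% of reads). Per the submitters' processing notes, TopHat and GRCm38 were used. How reads were assigned to genes, and whether by strand, is not given in the sources used here. All values (100%) were whole multiples of 1 read within 0.01. The recovered reads per gene were scaled by TMM, because 1 library was mostly reads of 1 gene and the fractions differed in the share of reads outside genes. limma 3.58.1 (R 4.3.3) with a trended prior fitted 10 group means to log2(scaled CPM + 1) over 22 libraries, for 9 two-sided contrasts, keeping genes that reached a scaled CPM of 1 in 2 or more libraries. Calls needed an adjusted p (Benjamini-Hochberg) under 0.05. Named are the genes called, the 6 highest per kb and 11 fixed genes; per-library values are given for the largest changes. Genes and lists were chosen with earlier results of these data known. Alternatives were the deposited CPM, quantile normalization, a pseudocount of 0.25, no filter, fits of the compared libraries, a replicate block, leaving out libraries, edgeR 4.0.16 and DESeq2 1.42.0 on recovered reads and, chosen after the data were seen, reads of pseudogenes added to their genes. The procedure was tested on simulated data. P-values measure the spread between libraries, which the design text calls independent biological replicates. The design text has P21 where the labels have P28, and the labels were followed. Promoter windows are from RefSeq (GRCm38.p6), other annotation from GENCODE M21, with a symbol for 49326 of 49671 gene identifiers.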

Additional observations from a re-analysis of the deposited data

Results flagged for a closer look

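Dnaja4, a cytosolic DnaJ protein, differed between the fractions in opposite directions at 2 ages, without overlap at either. It was at 101 and 101 at P8 in the pulldown and at 37.5 and 21.6 at P8 in the whole cochlea, a log2 difference of 1.79 ± 0.41 (SE), adjusted p = 0.00702 (limma). It was then at 48.9 and 28.4 at P28 in the pulldown and 93.1 and 107 at P28 in the whole cochlea, a log2 difference of -1.39 ± 0.41 (SE), adjusted p = 0.018 (limma). The difference between these 2 ages was not itself tested. The change of its enrichment from young to adult was -1.21 ± 0.36 (SE), adjusted p = 0.199 (limma), which was not called. In its sequence, 42.7% of windows of 50 bases also lie in transcripts of Wdr61.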

How the results depend on the processing

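With CPM as deposited the median gene itself shifted, by 0.74 on the log2 scale at P8, 0.38 between adult and young whole cochlea, -0.28 at P14, 0.27 at 6 weeks, -0.25 for the change of enrichment, 0.14 between adult and young pulldown and 0.13 over all ages. Calls then numbered 18 over all ages, 3 at P14, 3 at P28, 0 at 6 weeks, 2 at 10 weeks, 2 in the pulldown with age and 7 in the whole cochlea with age, and Dnajb11 and Hsp90ab1 at P8 turned to 0.11 and 0.38, below the shift of the median gene. Fits of only the libraries compared called 2 at P28, 26 at 6 weeks, 38 at 10 weeks, 2 in the pulldown and 20 in the whole cochlea with age. Quantile normalization called 11 in the pulldown with age, and leaving out P8 input 2, P14 IP 1 and P28 IP 2 together 7 at 6 weeks. DESeq2 called 7 at 6 weeks, 12 in the pulldown with age and 7 for the change of enrichment, where edgeR called 1. The cause of these moves was not tested. Shares of all genes called are given for the main fit alone. Counts from other fits therefore show how calls depend on processing, and not whether chaperone genes exceeded other genes. Leaving out each library in turn gave 31 to 39 calls over all ages, 2 to 12 at P8, 6 to 14 at P14, 12 to 20 at P28, 1 to 6 at 6 weeks, 8 to 21 at 10 weeks, 3 to 14 and 6 to 15 with age in the pulldown and whole cochlea, and 0 to 12 for the change of enrichment. Of 1065 values of called genes under the other alternatives, 923 kept direction and call, 140 lost the call and 2 turned. Libraries of 1 number were not treated as paired in the main fit. Their deviations correlated at 0.040 to 0.293, and at 0.1 or less in 3 ages. All these values were positive, and in a group of 2 both libraries give the same value by construction. They do not decide whether a pulldown and an input library of 1 number were paired. With the replicate block 35 genes were called over all ages, 11 at P8, 10 at P14, 16 at P28, 4 at 6 weeks, 17 at 10 weeks, 5 and 10 with age in the pulldown and whole cochlea, and 0 for the change of enrichment. With 2 libraries a group, single-age calls rest on a spread shared over groups, and genes of low level such as Hspa1a and Dnajb3 are limited by depth.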
